A study of Homo sapiens with 4 samples.

Results

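The 10 genes described here belong to the neuronal cytoskeleton and growth cone and were measured in glioblastoma spheres kept with or without the CDK4 and CDK6 inhibitor abemaciclib. They were taken by gene name: MAP2, MAPT, MAP1B, DCX, STMN1, STMN2, TUBB3, GAP43, DPYSL3 and NEFL, which are 10 of the 60617 genes listed in each library. Each name matched 1 row. The set was put together with the difference between abemaciclib and untreated spheres already known, so that difference is given below as a description, without a test, and nothing is supported with it.

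Microtubules are polymers of alpha- and beta-tubulin that neurons use to build and supply axons and dendrites. Structural microtubule-associated proteins (MAPs) bind along the polymer and stabilise it, stathmins bind free tubulin and favour disassembly, and at the tip of a growing axon, the growth cone, membrane and adaptor proteins link microtubules and actin to guidance signals. Kinases that include GSK3B and CDK5 phosphorylate several of these proteins and loosen their grip on microtubules. Glioma cells can express parts of this program without being neurons.

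U87MG is an established human glioblastoma line. It was grown as spheres in a serum-free stem cell medium, DMEM/F12 with N2, 2% B27 and the growth factors EGF and bFGF (20 ng/ml of each), and collected at day 14. The compared groups were spheres treated with abemaciclib (2 libraries) and untreated spheres (2 libraries), both in that medium. The dose of the drug, any vehicle, and whether the libraries of a group came from separate cultures are not stated in the labels. Every error and p-value below thus reflects how far these libraries of a group lie apart, which may be technical. Depth ran from 23684260 to 33418075 expected counts per library. Transcripts of the mitochondrial genome took up 11.8% and 11.7% of counts after abemaciclib and 4.27% and 4.66% in untreated spheres. With the mitochondrially encoded genes left out, 6529 genes passed the threshold given below as higher and 6751 as lower. With them these numbers were 6542 and 6757. Any other part of this shift in the results was not tested. Levels are in CPM, expected counts set to a common library size, after TMM scaling, which evens out differences in library make-up. In bulk RNA, fewer cells expressing a gene and less of its RNA per cell cannot be told apart. Most genes differed between the groups: of 17207 genes with enough counts to test, 77.3% passed an adjusted p of 0.05 (edgeR quasi-likelihood test), 38.0% higher and 39.3% lower after the drug, and 87.9% had no overlap between abemaciclib and untreated libraries.

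Of the 10 genes, 7 had enough counts to be tested, namely MAP2, MAPT, MAP1B, STMN1, TUBB3, GAP43 and DPYSL3. All 7 passed that threshold, 4 in the higher and 3 in the lower direction, beside 38.0% and 39.3% of all tested genes, and all 7 had groups that did not overlap, beside 87.9% of all tested genes. The genes were chosen on this contrast, so nothing is read from these counts. The 3 others, DCX, STMN2 and NEFL, were near the counting floor in every library. The label of the set therefore names where these proteins are known from, and 3 of its neuronal members were hardly detected here.

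**Figure D1:**
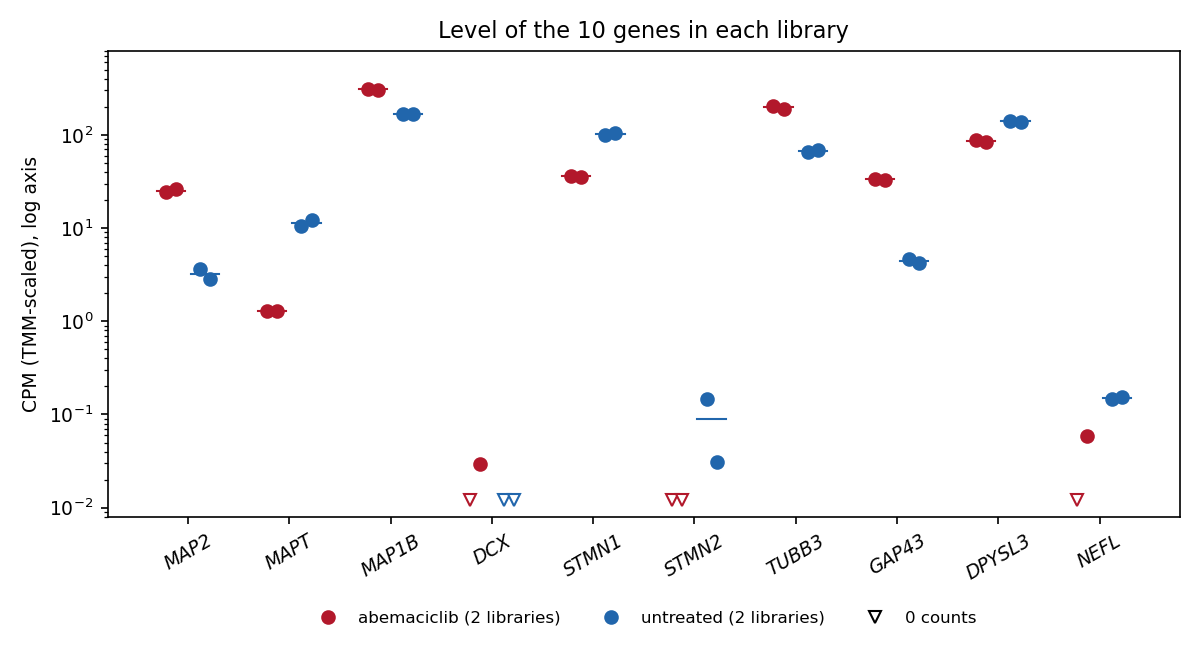
Level of each of the 10 genes in each library, in TMM-scaled CPM on a log axis, with abemaciclib libraries in red and untreated libraries in blue. Points are single libraries, short lines are the means where both libraries had counts, and open triangles mark libraries with 0 counts. MAP2, MAP1B, TUBB3 and GAP43 lie higher and MAPT, STMN1 and DPYSL3 lower in the abemaciclib libraries.

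The structural MAPs went in both directions. MAP2, which stabilises microtubules mainly in dendrites (GRCh38 chromosome 2, 209424058 to 209734118), had 24.6 and 26.0 CPM in the abemaciclib libraries, against 3.66 and 2.84 CPM in the untreated libraries. Both treated libraries were far above both untreated ones, and the log2 fold change was 2.98 ± 0.11. Here and below, ± on a log2 fold change is a standard error worked back from the edgeR F statistic. It is the size of the change divided by the square root of F. MAPT, which encodes the axonal protein tau (chromosome 17, 45894382 to 46028334), had 1.29 and 1.3 CPM in the abemaciclib libraries, against 10.6 and 12.2 CPM in the untreated libraries. Its treated libraries nearly coincided and lay far below the untreated ones (log2 fold change -3.14 ± 0.16, from 31 and 44 counts in treated and 286 and 401 counts in untreated spheres). MAP2 and MAPT are related genes that share the microtubule-binding repeats. Per kilobase of exon, the level of MAP2 was 24.6 and 25.9 times that of MAPT in the abemaciclib libraries and 0.447 and 0.299 times in the untreated libraries. Per kilobase of the longest coding transcript the ratio was 13.4 and 14.1 in abemaciclib libraries and 0.243 and 0.163 in untreated libraries. The order of the pair was thus turned round between the groups by either length, and the ratio does not depend on how the libraries were scaled. In absolute fold change MAP2 exceeded 94.8% and MAPT 95.3% of all tested genes, which describes the size of the differences by which they were chosen.

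MAP1B, which bundles microtubules in developing axons and growth cones (chromosome 5, 72107234 to 72209570), had 312.1 and 304.3 CPM in the abemaciclib libraries and 168.5 and 168.4 CPM in the untreated libraries. The groups stood well apart, at a smaller log2 fold change of 0.87 ± 0.03. DCX, doublecortin, a MAP of migrating immature neurons (chromosome X, 111293779 to 111412429), had 0 and 1 counts in the abemaciclib libraries and 0 counts in both untreated libraries. A group total of 3 counts, the limit that 0 counts allow, would be 0.0517 CPM in abemaciclib and 0.0502 CPM in untreated spheres. That limit holds for the untreated group only, since the abemaciclib group had 1 count. No fold is given. Its relative DCLK1, a kinase with doublecortin domains, rose to 31.8 and 34.6 CPM in the abemaciclib libraries, against 7.85 and 8.12 CPM in the untreated libraries (log2 fold change 2.06 ± 0.08, edgeR adjusted p = 2.24e-20). DCLK2 had 13.9 and 15.1 CPM on average and did not pass (log2 fold change -0.12 ± 0.09, edgeR adjusted p = 0.21).

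Among the 5 structural MAPs, MAP1A and MAP4 were the most abundant per kilobase. MAP1A, a relative of MAP1B, and MAP4, the MAP of non-neuronal cells, averaged 67.5 and 45.2 CPM per kb of exon in abemaciclib spheres and 30.2 and 37.9 CPM per kb in untreated spheres. By the longest coding transcript they averaged 68.0 and 75.8 CPM per kb in abemaciclib spheres and 30.4 and 63.5 CPM per kb in untreated spheres, so the order of MAP1A and MAP4 in abemaciclib spheres depends on the length used. MAP1A rose (log2 fold change 1.16 ± 0.03, edgeR adjusted p = 6.7e-25) and so did MAP4 by less (0.25 ± 0.03, edgeR adjusted p = 4.55e-09). MAP1B held 17.4% and 17.6% of the summed per-kilobase level of the 5 genes in the abemaciclib libraries and 16.1% and 16.2% in the untreated libraries. The share of MAP2 was 1.5% and 1.65% in abemaciclib libraries, against 0.383% and 0.299% in untreated libraries. MAPT held 0.0607% and 0.0636% in abemaciclib libraries and 0.858% and 0.998% in untreated libraries, or 0.108% and 0.113% against 1.41% and 1.64% by the longest coding transcript. The 2 genes with the widest fold changes thus made up a small part of the MAP transcripts in every library.

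TUBB3, the beta-tubulin enriched in neurons and also found in many tumours (chromosome 16, 89921392 to 89938761), had 203.6 and 191.3 CPM in the abemaciclib libraries, against 65.4 and 69.1 CPM in the untreated libraries. Its treated libraries were both well above the untreated ones (log2 fold change 1.55 ± 0.04). Of the other 8 beta-tubulins listed, TUBB2A (0.88 ± 0.04), TUBB6 (0.60 ± 0.03) and TUBB (0.43 ± 0.03) rose as well, and TUBB4B fell (-0.40 ± 0.03), each with an edgeR adjusted p of 1.17e-12 or less. TUBB2B, at 1.16 and 0.96 CPM on average, did not pass (0.25 ± 0.33, edgeR adjusted p = 0.5). TUBB1, TUBB4A and TUBB8 were at or near 0 counts in every library. TUBB3 made up 9.24% and 8.80% of the beta-tubulin level per kilobase in the abemaciclib libraries and 3.74% and 4.09% in the untreated libraries. With the longest coding transcript as the length, these shares were 14.6% and 13.9% in abemaciclib libraries and 6.20% and 6.73% in untreated libraries, since the exons of TUBB3 add up to 4.43 kb but its longest coding transcript to 1.98 kb. The level of TUBB3 relative to TUBB4B, a ratio free of library scaling, was 0.468 and 0.440 in abemaciclib libraries and 0.112 and 0.123 in untreated libraries per kilobase of exon. It was 0.813 and 0.764 in abemaciclib libraries and 0.194 and 0.214 in untreated libraries by the longest coding transcript. Beta-tubulin genes resemble each other, and the expected counts of TUBB3, TUBB, TUBB2A, TUBB2B and TUBB4B were not whole, so reads may have been divided among these genes. Those of TUBB6 were whole in all 4 libraries. TUBB3 also shares 1584 exon bases with the readthrough gene AC092143.1, which was listed at no more than 0.157 CPM in any library. The exons of MAPT and its antisense gene MAPT-AS1 share 75 bases, and that gene was at or near 0 CPM.

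**Figure D2:**
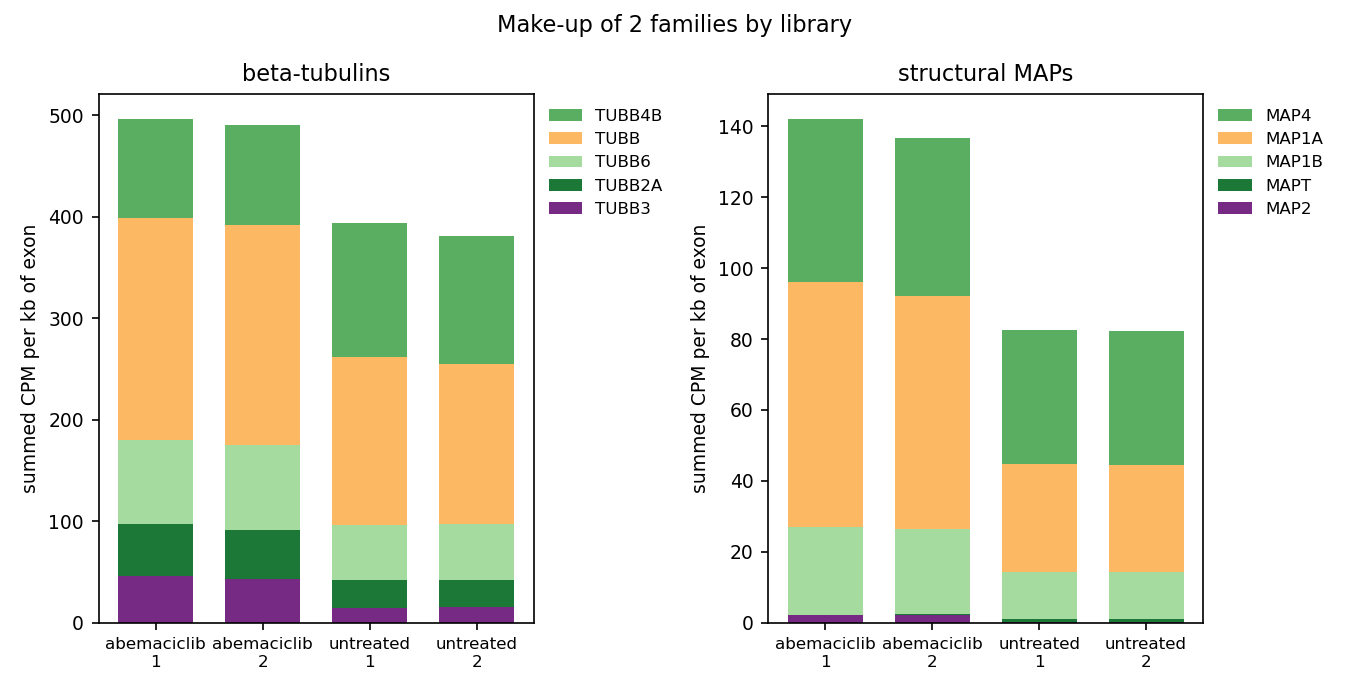
Summed level per library, in TMM-scaled CPM per kilobase of exon, of the 5 most abundant beta-tubulins (left panel) and of the 5 structural MAPs (right panel), with both abemaciclib libraries left of both untreated libraries and 1 colour per gene. TUBB3 is a larger slice of the abemaciclib bars, while MAP2 and MAPT are thin slices of every bar.

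Of the microtubule-destabilising stathmins, 2 had enough counts to be tested, STMN1 and STMN3. STMN1, which sequesters tubulin dimers and is abundant in dividing cells as well as in young neurons (chromosome 1, 25884181 to 25906991), had 36.2 and 35.5 CPM in the abemaciclib libraries, against 98.9 and 103.9 CPM in the untreated libraries. Replicates differed by a few percent while the groups lay far apart (log2 fold change -1.50 ± 0.04). STMN3, a neuronal relative, fell to 0.457 and 0.354 CPM in the abemaciclib libraries, against 6.11 and 5.98 CPM in the untreated libraries (log2 fold change -3.91 ± 0.25, edgeR adjusted p = 2.8e-15). STMN2, the growth cone stathmin of neurons (chromosome 8, 79610814 to 79666175), had 0 counts in both abemaciclib libraries and 4 and 1 counts in the untreated libraries, so few that no fold is given. STMN4 had too few counts to be tested, with 0.166 and 0 CPM in abemaciclib libraries and 0.629 and 0.275 CPM in untreated libraries. STMN1 held 96.6% and 98.0% of the stathmin level per kilobase of exon in the abemaciclib libraries and 87.4% and 88.9% in the untreated libraries. By the longest coding transcript these shares were 98.8% and 99.3% in abemaciclib libraries and 95.2% and 95.8% in untreated libraries, so the size of the gap depends on the length used. Beside it, most listed genes of dividing cells were lower too. Of 24 genes of G2/M and mitosis, 1 was higher (CCNB1), 19 lower and 4 short of the threshold, beside 38.0% higher and 39.3% lower of all tested genes. DESeq2 called 15 of the 24 lower. Their summed level was 379.5 to 401.5 CPM in abemaciclib and 638.2 to 669.0 CPM in untreated libraries. KIF20A (-2.49 ± 0.09), AURKB (-2.26 ± 0.15), MKI67 (-2.04 ± 0.13), HMGB2 (-1.88 ± 0.06) and NUSAP1 (-1.77 ± 0.07) fell furthest of those above 1 CPM (edgeR adjusted p of 2.04e-05 or less). Their part in the level of STMN1 was not tested.

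The growth cone genes differed in direction. GAP43, a membrane-bound substrate of protein kinase C that marks growing and regenerating axons (chromosome 3, 115623324 to 115721490), had 34.0 and 33.2 CPM in the abemaciclib libraries, against 4.63 and 4.21 CPM in the untreated libraries. Treated and untreated libraries were far apart and tight within each group (log2 fold change 2.93 ± 0.09). Of the other membrane substrates of that kinase, BASP1 averaged 146.4 and 140.3 CPM and did not pass (log2 fold change 0.06 ± 0.04, edgeR adjusted p = 0.101). MARCKS (-0.37 ± 0.03, edgeR adjusted p = 3.53e-11) and MARCKSL1 (-1.42 ± 0.05, edgeR adjusted p = 1.08e-21) fell. The per-kilobase level of GAP43 relative to MARCKSL1 was 1.03 and 1.01 in the abemaciclib libraries and 0.0516 and 0.0489 in the untreated libraries. GAP43 and MARCKSL1 were thus at like levels after the drug, while GAP43 was much the lower in untreated spheres.

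DPYSL3, or CRMP4, one of the collapsin response mediators that carry repulsive guidance signals to the cytoskeleton (chromosome 5, 147390811 to 147510056), had 88.8 and 84.2 CPM in the abemaciclib libraries and 142.4 and 138.6 CPM in the untreated libraries. Its log2 fold change of -0.70 ± 0.04 was the smallest in size of the 7, and the groups still did not overlap. In the same family DPYSL4 fell (-1.14 ± 0.12, edgeR adjusted p = 2.51e-10) and DPYSL2 by less (-0.14 ± 0.04, edgeR adjusted p = 1.4e-03), a call that DESeq2 did not make (adjusted p = 0.0931). CRMP1 and DPYSL5 were near 0. The level of DPYSL3 per kilobase was 0.948 and 0.879 times that of DPYSL2 in abemaciclib libraries and 1.38 and 1.32 times in untreated libraries.

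NEFL, the light subunit of neurofilaments, the intermediate filaments of axons (chromosome 8, 24950955 to 24957110), had 0 and 2 counts in the abemaciclib libraries and 4 and 5 counts in the untreated libraries. The ratio of scaled counts, untreated over abemaciclib, was 4.37 with a 95% counting interval of 0.904 to 41.5 (Clopper-Pearson), so a difference was not detectable at this depth. NEFM, NEFH and INA were near or at 0 as well. PRPH, peripherin, of peripheral nerve, fell to 0.249 and 0.206 CPM in abemaciclib libraries, against 5.37 and 4.61 CPM in untreated libraries (-4.44 ± 0.30, edgeR adjusted p = 1.21e-14). The abundant intermediate filaments were those of glial progenitors and mesenchymal cells, and both fell, VIM by 0.45 ± 0.04 and NES by 0.50 ± 0.04 on the log2 scale (edgeR adjusted p of 1.76e-09 or less).

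**Figure D3:**
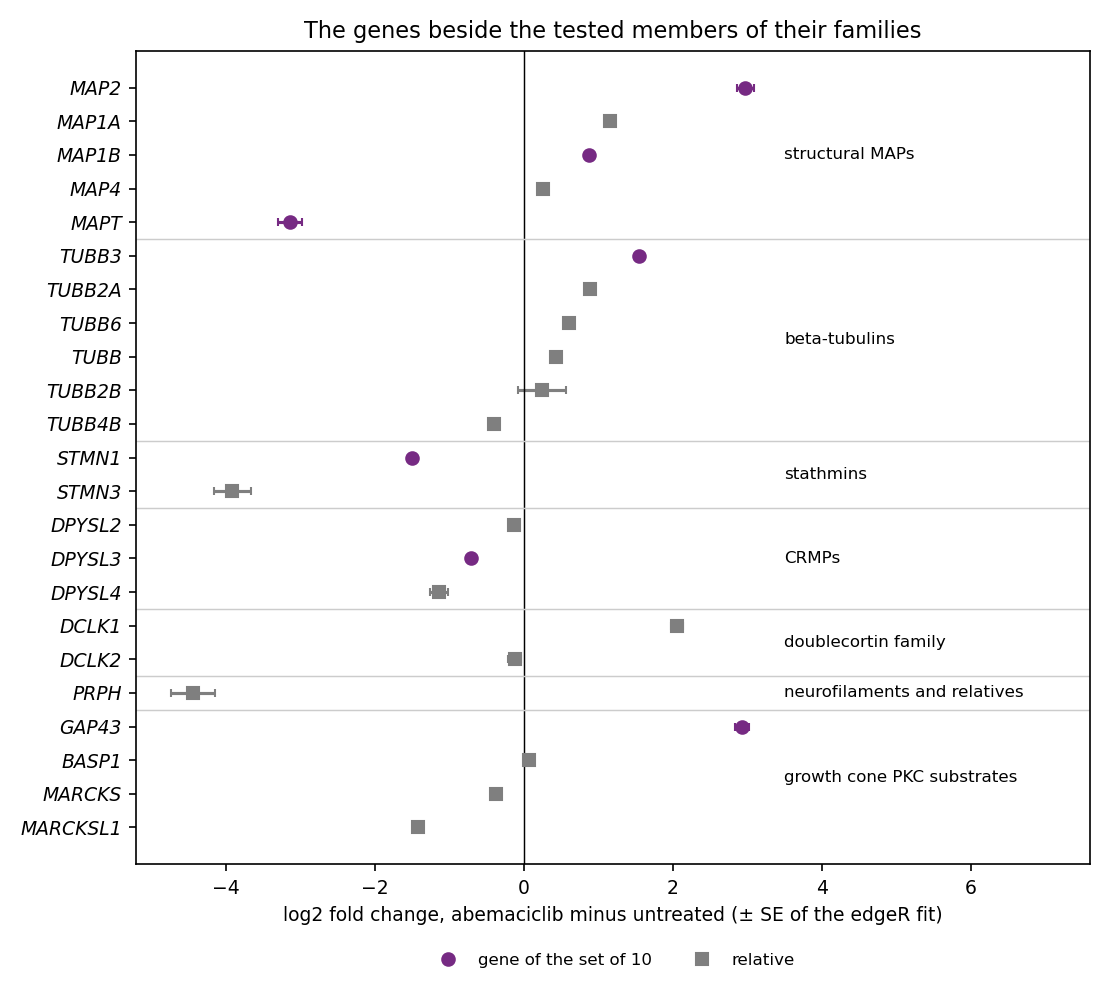
Log2 fold change, abemaciclib minus untreated, of the 7 tested genes of the set (circles) and their tested relatives (squares), grouped by family. Bars are standard errors worked back from the edgeR F statistic. MAP2 and GAP43 lie near 3 and MAPT near -3, while MAP1A, MAP4 and the relatives of GAP43 lie between these values.

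Levels of the 7 genes were set in order per kilobase of exon. In abemaciclib spheres the order was TUBB3 at 44.6 ± 1.96, MAP1B at 24.4 ± 0.437, GAP43 at 16.1 ± 0.27, DPYSL3 at 12.1 ± 0.452, STMN1 at 5.73 ± 0.0813, MAP2 at 2.19 ± 0.0902 and MAPT at 0.0866 ± 0.00053 CPM per kb (mean ± SD, n = 2). In untreated spheres it was DPYSL3 at 19.6 ± 0.383, STMN1 at 16.2 ± 0.56, TUBB3 at 15.2 ± 0.591, MAP1B at 13.3 ± 0.00179, GAP43 at 2.12 ± 0.14, MAPT at 0.765 ± 0.0787 and MAP2 at 0.281 ± 0.0504 CPM per kb (n = 2). STMN1 and TUBB3 in untreated spheres were the one neighbouring pair whose mean ± SD ranges met. By the longest coding transcript TUBB3 averaged 99.8 and 34.0 CPM per kb and MAPT 0.190 and 1.67 CPM per kb in abemaciclib and untreated spheres. DPYSL3 averaged 15.8 and 25.7 CPM per kb by that length. In untreated spheres DPYSL3 thus stood above TUBB3 per kilobase of exon but below TUBB3 by the longest coding transcript. The place of STMN1 rests on the length used as well. Per kilobase of its longest coding transcript it averaged 21.0 and 59.2 CPM per kb in abemaciclib and untreated spheres. That puts it above GAP43 and DPYSL3 after the drug and above all 6 others in untreated spheres. All 10 genes together summed to 700.6 and 676.0 CPM in the abemaciclib libraries and 494.4 and 499.4 CPM in the untreated libraries. That sum is weighted to abundant genes. MAP1B averaged 308.2 CPM in abemaciclib and 168.4 CPM in untreated spheres, and TUBB3 197.5 and 67.3 CPM, while MAPT, STMN1 and DPYSL3 fell.

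The starts of 4 of these genes are shown, those of GAP43 and MAP1B, which were higher after the drug, and of STMN1 and DPYSL3, which were lower, to set side by side what the promoters of each direction hold. RefSeq promoters on GRCh38.p14 (300 bases, 250 before and 50 after the start nearest the gene's 5′ end) were used for 7 of the 10 genes. MAPT had no entry among these promoters. STMN2 and NEFL were not searched either, which does not show that they lack a RefSeq promoter. The 7 were searched on both strands for E-boxes (CANNTG), GC boxes (GGGCGG), the TCF/LEF core (CTTTGA) and the E2F core (TTCGCGC or TTGGCGC). Capitals mark the matches, of which no 2 overlapped.
GAP43, chr3:115623260-115623559, plus strand: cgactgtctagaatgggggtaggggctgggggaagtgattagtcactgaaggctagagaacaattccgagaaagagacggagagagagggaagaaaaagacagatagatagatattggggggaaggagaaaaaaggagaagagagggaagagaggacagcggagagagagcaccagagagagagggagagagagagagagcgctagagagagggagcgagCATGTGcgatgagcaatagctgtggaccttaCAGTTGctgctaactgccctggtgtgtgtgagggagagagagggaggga
MAP1B, chr5:72107225-72107524, plus strand: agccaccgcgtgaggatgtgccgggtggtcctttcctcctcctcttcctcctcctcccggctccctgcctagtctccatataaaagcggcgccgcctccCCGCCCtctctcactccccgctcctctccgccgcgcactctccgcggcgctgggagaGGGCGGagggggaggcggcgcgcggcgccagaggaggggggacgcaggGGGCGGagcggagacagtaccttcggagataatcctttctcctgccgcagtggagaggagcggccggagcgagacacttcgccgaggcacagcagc
STMN1, chr1:25906831-25907130, minus strand: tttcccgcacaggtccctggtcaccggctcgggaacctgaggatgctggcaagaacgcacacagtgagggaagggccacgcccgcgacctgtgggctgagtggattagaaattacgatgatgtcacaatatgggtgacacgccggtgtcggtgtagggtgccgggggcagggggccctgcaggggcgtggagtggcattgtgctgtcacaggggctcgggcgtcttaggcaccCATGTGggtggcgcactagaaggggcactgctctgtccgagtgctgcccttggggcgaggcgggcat
DPYSL3, chr5:147510019-147510318, minus strand: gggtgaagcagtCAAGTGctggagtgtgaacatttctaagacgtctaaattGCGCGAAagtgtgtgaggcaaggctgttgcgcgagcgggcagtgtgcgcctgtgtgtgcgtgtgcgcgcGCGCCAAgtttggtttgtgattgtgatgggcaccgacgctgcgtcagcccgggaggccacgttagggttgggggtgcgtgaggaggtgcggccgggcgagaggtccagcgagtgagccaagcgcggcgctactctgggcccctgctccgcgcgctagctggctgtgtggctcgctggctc

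The 4 promoters had little in common. That of GAP43 is a long run of purines: 76.3% of its bases are A or G, more than in 99.9% of the 35116 promoters in the table, and it holds 2 E-boxes and 7 CpG dinucleotides. The MAP1B promoter is 70.0% GC with 31 CpG and 3 GC boxes. STMN1 and DPYSL3 were both 64.3% GC, with 19 and 29 CpG, and each held 1 E-box, while DPYSL3 alone of the 7 held E2F cores (2). TUBB3 and DCX had none of the 4 motifs, and MAP2 had 2 E-boxes at a start that lies 155285 bases inside the gene. The TCF/LEF core was in none of the 7 windows. Over all promoters of this length 68.7% held an E-box, 45.0% a GC box, 12.9% the TCF/LEF core and 5.06% the E2F core. A match of letters is a description and not a site.

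To see what the genes around the set did, lists that hold none of the 10 were counted in the edgeR test over all genes. The background was 38.0% higher and 39.3% lower. The lists were chosen with earlier results of these data known. Most genes named from them were picked for passing the threshold with the largest changes, so their p-values are selected ones. Of 29 tested microtubule-associated proteins outside the set, 13 were higher, 11 lower and 5 short of the threshold, and their median log2 fold change was 0.019 beside -0.01 for all genes. That list median was -0.015 without abemaciclib replicate 1 and -0.031 without untreated replicate 1. MAP7 (2.73 ± 0.33), MAP7D2 (1.68 ± 0.20) and MTCL1 (1.28 ± 0.07), which stabilise microtubules or recruit kinesin, rose. The tubulin polymerisation promoters TPPP (-2.65 ± 0.39) and TPPP3 (-1.33 ± 0.19) fell, all 5 with an edgeR adjusted p of 4.5e-07 or less. Of 14 tubulins, 6 were higher, 4 lower and 4 short of the threshold (median 0.15). Among the alpha-tubulins TUBA1A, the form of developing neurons, rose to 384.5 and 370.2 CPM in abemaciclib libraries, against 162.0 and 157.3 CPM in untreated libraries (1.24 ± 0.03), and TUBA4A fell (-0.69 ± 0.03, edgeR adjusted p of 1.83e-18 or less for both). Of the 5 tested relatives of stathmins, doublecortin and CRMPs, 1 was higher, 3 lower and 1 short of the threshold (median -0.14), and of 4 intermediate filaments 1 was higher and 3 lower (median -0.47). The higher one, SYNM, was not called by DESeq2, nor without abemaciclib replicate 2 or untreated replicate 2.

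Of 14 growth cone membrane and adhesion genes, 7 were higher, 6 lower and 1 short of the threshold (median 0.31, or 0.57 without untreated replicate 2). The adhesion molecules NCAM2 (3.63 ± 0.36) and NFASC (1.48 ± 0.03) and the growth cone protein GPRIN3 (1.27 ± 0.13) rose. L1CAM, an adhesion molecule of axons, fell to 0.304 and 0.265 CPM in abemaciclib libraries, against 5.14 and 3.42 CPM in untreated libraries (-3.92 ± 0.32, edgeR adjusted p of 3.3e-10 or less for these). Of 18 growth cone actin regulators, 10 were higher, 5 lower and 3 short of the threshold (median 0.35). The cortical actin regulator CTTN (1.21 ± 0.03), ABLIM3 (0.78 ± 0.04) and the actin-monomer binder PFN1 (0.75 ± 0.03) rose, and the GTPase RND2 (-1.23 ± 0.12) and the bundling protein FSCN1 (-0.77 ± 0.04) fell (edgeR adjusted p of 4.68e-11 or less).

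Of 25 kinases, activators and phosphatases that act on MAPs, 8 were higher, 14 lower and 3 short of the threshold (median -0.28). GSK3B, which the series title names and which phosphorylates tau, MAP1B and CRMPs, had 51.4 and 50.1 CPM in abemaciclib libraries and 43.7 and 43.6 CPM in untreated libraries, a small rise (0.22 ± 0.05, edgeR adjusted p = 2.27e-04). CDK5 (0.75 ± 0.07) and its activator CDK5R1 (0.81 ± 0.14) rose and the other activator CDK5R2 fell (-1.04 ± 0.20). The tau kinase MARK1 rose (1.11 ± 0.12), and the kinase CAMK2A (-1.24 ± 0.07) and the JNK scaffold MAPK8IP3 (-1.20 ± 0.03) fell (edgeR adjusted p of 2.78e-05 or less for these 6). DESeq2 called 5 of the list higher rather than 8. Of 19 axonal transport motors and their partners, 10 were higher, 5 lower and 4 short of the threshold (median 0.19, or 0.33 without untreated replicate 1). The dynactin subunit DCTN1 (0.71 ± 0.03) and the kinesin KIF21A (0.78 ± 0.14) rose, and the neuronal kinesin KIF5A (-0.91 ± 0.07), KIF21B (-0.77 ± 0.10) and NDEL1 (-0.82 ± 0.04) fell (edgeR adjusted p of 6.04e-06 or less).

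Genes that define neurons were counted as well. Of 17 such markers, 3 were at 0 in every library (SLC17A6, SLC32A1 and INA) and 9 stayed under 1 CPM throughout. Of the 9 tested, 1 was higher, 5 lower and 3 short of the threshold (median -0.75, or -1.28 without abemaciclib replicate 1), and their summed level was 182.4 to 182.7 CPM in abemaciclib and 440.9 to 441.5 CPM in untreated libraries. The glutamate transporter SLC17A7 (-4.50 ± 0.31), the release protein STX1A (-1.88 ± 0.03), the vesicle proteins SYP (-1.64 ± 0.26) and SYT1 (-0.75 ± 0.11) and CAMK2A fell (edgeR adjusted p of 1.12e-06 or less). SNAP25, of the same release machinery, rose (0.60 ± 0.05, edgeR adjusted p = 1.22e-11). STX1A made up most of the summed level. Of 11 neurogenic factors and repressors of neuronal genes, 2 were higher, 7 lower and 2 short of the threshold (median -0.56), and 1 was higher without abemaciclib replicate 2 or untreated replicate 2 and 0 with DESeq2. The splicing repressor PTBP1 (-0.62 ± 0.03), its relative PTBP2 (-0.74 ± 0.17), the REST corepressor RCOR2 (-2.56 ± 0.30) and SOX4 (-0.71 ± 0.09) fell (edgeR adjusted p of 2.26e-04 or less). ELAVL2 rose (0.79 ± 0.28, edgeR adjusted p = 0.0129), a call that DESeq2 (adjusted p = 0.169) and the fit without untreated replicate 2 (edgeR adjusted p = 0.0585) did not make. REST itself, chosen after its values were seen, fell (-0.39 ± 0.08, edgeR adjusted p = 1.49e-04).

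Markers of other cell types were counted beside these. Of 6 tested astrocyte markers 2 were higher and 4 lower, with a median log2 fold change of -0.78. The summed level of the list, which is weighted to abundant genes, went the other way. It was 2468 to 2481 CPM in abemaciclib and 1976 to 2002 CPM in untreated libraries. GFAP, AQP4, S100B and ALDH1L1 were at or near 0 while GJB6 and FGFR3 were at 0. The higher astrocyte markers numbered 1 without abemaciclib replicate 1, untreated replicate 1 or untreated replicate 2, and also with DESeq2, with the replicate block and with low-count genes kept. Of 6 oligodendrocyte markers 4 were higher and 2 lower (median 0.57, summed level 357.0 to 364.8 CPM in abemaciclib and 246.4 to 254.5 CPM in untreated libraries). MOG, MAG, SOX10 and OLIG1 were at 0. Of 12 fibroblast and pericyte markers 2 were higher, 8 lower and 2 short of the threshold (median -1.24). Their list summed to 5260 to 5378 CPM in abemaciclib and 11536 to 11846 CPM in untreated libraries. As a check on the line, CD44, CHI3L1 and VIM were abundant, CDKN2A was at 0 and MTAP at or near 0 in every library, and GFAP was near 0. The tested glioma line markers had a median log2 fold change of -0.76. That median was -0.57 without abemaciclib replicate 2 and -0.65 without untreated replicate 2. Of the 8 tested genes of that list 1 was higher (0 without abemaciclib replicate 2 or with DESeq2) and 7 lower, with a summed level of 7836 to 7851 CPM in abemaciclib and 18885 to 19301 CPM in untreated libraries. ALDOC (-3.38 ± 0.04) and the mesenchymal genes COL3A1 (-3.31 ± 0.06) and DCN (-2.79 ± 0.04) fell, CLU (0.99 ± 0.03) and CLDN11 (2.22 ± 0.15) rose, and CD44, a surface receptor that the series title names, fell (-1.48 ± 0.03, edgeR adjusted p of 2.47e-14 or less for these 6). The part of these markers in the levels of the 10 genes was not tested.

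**Figure D4:**
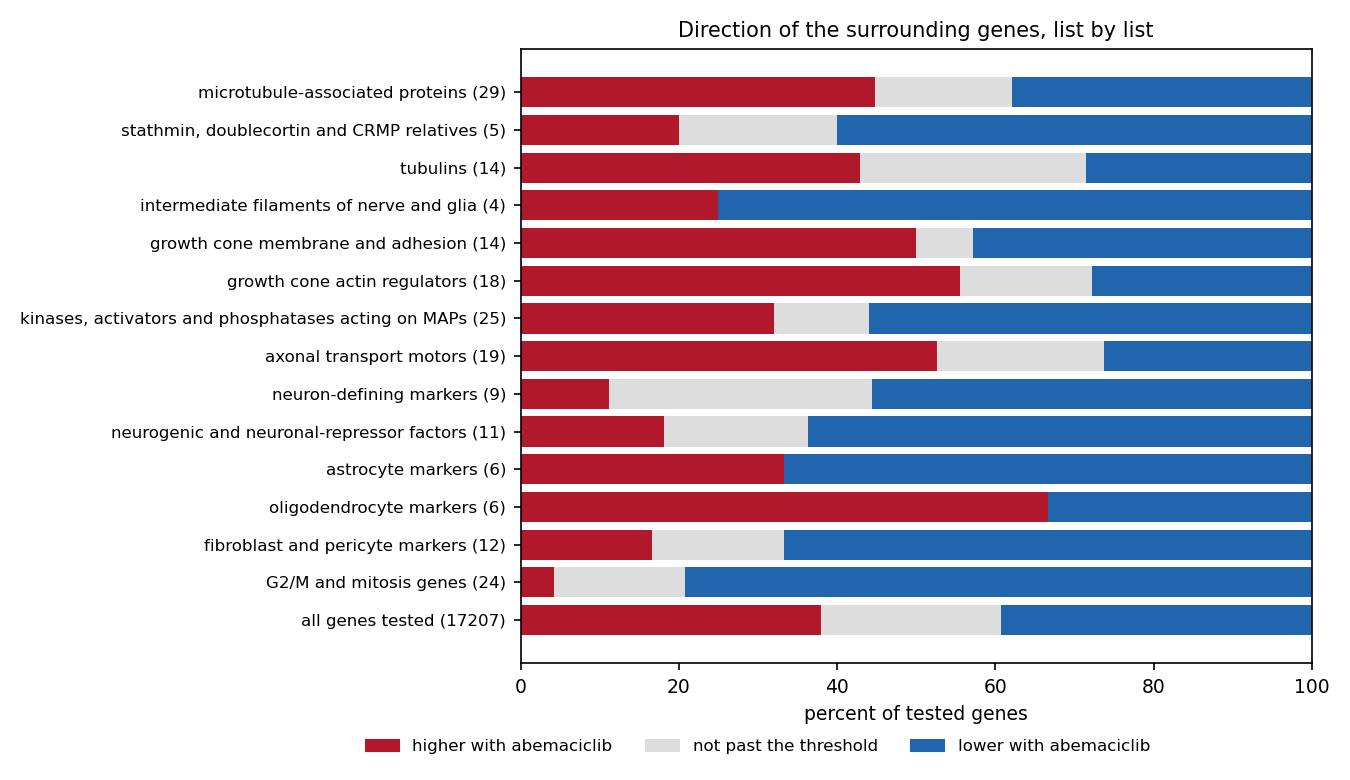
Percent of the tested genes of each list, glioma line markers left out, that were higher, not past the threshold or lower with abemaciclib (edgeR adjusted p under 0.05), with the number tested in brackets and all 17207 tested genes in the lowest bar. Growth cone actin regulators and transport motors hold more higher than lower genes, and neuron-defining markers, fibroblast markers and G2/M genes hold mostly lower ones.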

How the data were processed

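RNA was measured in 4 poly-A libraries of U87MG spheres, made with a stranded mRNA kit per the labels' protocols. The deposited files give an expected count per gene, per the file headers, an estimate of reads that the authors did not scale for depth or length and that divides shared reads among genes. STAR 2.7.2b and RSEM 1.3.1 are listed with the GRCh38 build in the submitters' processing notes. The annotation release and strand setting are not given in the sources used here. Replicates differed by more than sampling noise (chi-square per degree of freedom 1.95 for abemaciclib and 3.56 for untreated). That does not show separate cultures. Each library was treated as 1 sample, without knowing whether it was an independent one. The common coefficient of variation within groups was 2.86% in the edgeR fit.

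Expected counts were rounded and tested with edgeR 4.0.16 (R 4.3.3): filterByExpr, TMM, robust quasi-likelihood F test on group, two-sided, Benjamini-Hochberg over 17207 genes. DESeq2 1.42.0 was an alternative. The script was tested on simulated data. A total of 3 counts in a library equal 0.0885 to 0.125 CPM, and intervals and floors cover counting error only. Coordinates and lengths came from GENCODE release 29 (96.4% of identifiers matched). The 10 genes, the 15 lists and the alternatives were chosen with earlier results of these data known. List genes are named by size of change among those past the threshold (up to 5 per list, at least 1 CPM on average). Family members and GSK3B, CDK5 and CDK5R1 are named beside them.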

Additional observations from a re-analysis of the deposited data

How the results depend on the processing

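The log2 fold changes of the 7 tested genes kept their sign under all 10 alternatives (another scaling, no low-count filter, DESeq2, no mitochondrially encoded genes, each library left out, the replicate block). They ranged from 2.79 to 3.16 for MAP2, -3.24 to -3.03 for MAPT, 2.85 to 2.99 for GAP43, 1.51 to 1.60 for TUBB3, 0.87 to 0.92 for MAP1B, -1.53 to -1.45 for STMN1 and -0.72 to -0.65 for DPYSL3. All these settings draw on the same libraries. The groups did not overlap for the 7 genes, so nothing is supported with the kept signs. Over all genes, 5380 to 6934 were called higher and 5351 to 6990 lower. Whether same-numbered libraries share a culture or batch is not stated in the labels. Their deviations were uncorrelated (r = -0.0014), which cannot settle the question from 2 pairs. The replicate block gave 6451 higher and 6657 lower genes and 1 rather than 2 higher astrocyte markers.

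Counts of higher list genes that moved by more than 1.5 times were all small, and the cause was not tested. DESeq2 called 0 rather than 1 intermediate filament, 5 rather than 8 kinases and phosphatases, 0 rather than 2 neurogenic factors, 1 rather than 2 astrocyte markers, 1 rather than 2 fibroblast markers and 0 rather than 1 glioma line marker. Library size scaling called 2 rather than 1 neuron-defining marker and 2 rather than 1 G2/M gene, and with low-count genes kept 1 rather than 2 astrocyte markers were called. Leaving out 1 library gave 0 to 1 higher intermediate filaments, 1 to 2 neurogenic factors, 1 to 2 astrocyte markers and 0 to 1 glioma line markers. The median of the microtubule-associated list (0.019) ran from -0.031 (without untreated replicate 1) to 0.059 (without untreated replicate 2) and was -0.015 without abemaciclib replicate 1. BASP1 was called higher with library size scaling and without abemaciclib replicate 1 or untreated replicate 1 (log2 0.10 to 0.12). At this depth STMN2, DCX and NEFL could not be compared beyond their counts.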
